A study of Mus musculus with 12 samples.

Results

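The genes described here are 48 genes of the lysosome and its TFEB-family regulators, out of 12483 genes in the deposited count table. They were taken by name from a fixed list, without a cut on measured values, but the list was chosen with earlier results of these data known. It held 3 regulators, 10 proteases, 14 glycosidases and sulfatases, 7 soluble lipid-handling proteins, 10 membrane proteins and 4 proteins of the proton pump. All 48 were in the table and all 48 passed the filter on low counts, which 12231 genes passed. RNA came from RAW264.7, a macrophage line grown from a mouse tumour. There were 4 groups of 3 libraries. WT clones 1, 2 and 3 and KO clones 1A, 1B and 2 each gave a library from plain medium and a library from cells that got LPS (10 ng/mL) plus IFN-gamma (50 ng/mL), collected after 6 h. LPS, from the outer membrane of Gram-negative bacteria, and IFN-gamma, a cytokine of T and NK cells, together activate macrophages.

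The KO clones lack a site named NRE1, removed with a pair of CRISPR constructs aimed at its flanks. Per the labels' protocols, cells that carried both constructs were picked by GFP and puromycin resistance and grown up from single cells, and each clone was then assayed for the deletion. The labels do not say whether the WT clones went through the same selection, what NRE1 stands for, or how clones 1A and 1B are related. No row of the table carries the name NRE1, so no targeted gene could be read as a check of the labels. Each clone is one cell's progeny with 1 library in each condition, so p-values measure the spread between clones, and a difference between genotypes is a difference between 3 WT and 3 KO clones.

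The lysosome is the acidic compartment in which cells break down proteins, sugars, lipids and nucleic acids, and in macrophages it also digests engulfed particles and cuts antigens for presentation. A proton pump, the V-ATPase, acidifies it, membrane proteins such as LAMP1 line it and export its products, and soluble hydrolases do the digestion. TFEB, TFE3 and MITF are related basic helix-loop-helix transcription factors that bind E-boxes in promoters of lysosome genes. When nutrients are plentiful the kinase mTORC1 holds TFEB in the cytoplasm, so transcript levels of the factors do not show their activity.

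Because the E-box is the sequence these factors recognise, promoters are shown before the values. RefSeq promoters of build GRCm38.p6, from 250 bases before to 50 bases after the annotated start, were found for 43 of the 48 genes. Asah1, Ctsh, Atp6v1h, Npc1 and Ctsb were not matched. The core E-box CACGTG, searched on both strands, was present in 15 of the 43 (34.9%), against 8.09% of 27025 genes with a promoter in the same reference. The longer TCACGTG, which contains the core, was in 14 (32.6%, against 4.29% of all genes), and GTCACGTG, which contains both, was in 12 (27.9%, against 2.55%). The 3 regulators and the 6 matched soluble lipid-handling genes had no CACGTG in this window. It occurred in 4 of 8 proteases, 6 of 14 glycosidases and sulfatases, 3 of 9 membrane proteins and 2 of 3 proton pump genes. A match is only a match of letters, and no binding was measured.

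Stretches of 6 promoters are printed to show E-box sequence beside genes that rose, fell or kept their level under LPS/IFN-gamma. Each reads 5′ to 3′ on the gene's own strand with the E-box in capitals. Lamp1 had 4 E-boxes close together, the last of them 15 bases before the start (chr8:13159088-13159160, plus strand). Cln3 had its second E-box 121 bases before the start (chr7:126583340-126583369, minus strand), Sgsh had 1 at 29 bases (chr11:119355522-119355551, minus strand) and Naglu 1 at 73 bases (chr11:101070009-101070038, plus strand). Lgmn had 1 at 49 bases (chr12:102439124-102439153, minus strand) and Glb1 1 at 48 bases (chr9:114401018-114401047, plus strand). Distances are to RefSeq starts, which can differ from those of the GENCODE annotation. The Sgsh and Naglu stretches, and the Cln3 stretch that spans both its E-boxes, overlapped a GENCODE exon. Those of Lamp1, Lgmn and Glb1 did not. The Cln3 and Lgmn stretches lay inside the GENCODE spans of their own genes (chr7:126571207-126585817 and chr12:102394084-102439813). Those of Sgsh and Naglu ran across the GENCODE start of their gene (119355536 and 101070012), and those of Lamp1 and Glb1 lay before it.
Lamp1: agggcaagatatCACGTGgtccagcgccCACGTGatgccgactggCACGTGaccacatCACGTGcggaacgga
Cln3: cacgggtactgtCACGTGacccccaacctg
Sgsh: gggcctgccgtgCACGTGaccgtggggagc
Naglu: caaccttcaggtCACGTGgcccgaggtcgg
Lgmn: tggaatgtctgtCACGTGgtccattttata
Glb1: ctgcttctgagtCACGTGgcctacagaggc

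The libraries held 10624591 to 14388590 counts each. Levels are CPM, the usual per-library scaling of counts, here on TMM-scaled sizes, with a mean ± SD taken over 3 clones, and a gene was called at an adjusted p below 0.05 in edgeR's quasi-likelihood test. Log2 fold changes carry their standard error (SE). All 10 macrophage markers on a fixed list were in the table, with a summed level of 4410 to 18700 CPM in medium. Levels of single markers differed widely. Csf1r, which encodes the CSF1 receptor, read 1577 to 2725 CPM in medium. Adgre1 read 55.2 to 212.9 CPM in WT and 12.5 to 25.4 CPM in KO medium, and Mertk read at most 0.70 CPM in medium. B cell, fibroblast, epithelial and melanocyte markers had 0 of 5, 0 of 5, 0 of 4 and 0 of 5 genes in the table. Neutrophil markers had 1 of 7 (S100a8, at most 2.84 CPM) and T and NK cell markers 1 of 6 (Lck). Lck read 1.72 to 4.77 CPM in medium and 7.91 to 25.4 CPM under LPS/IFN-gamma, and was called higher in both genotypes. In bulk RNA, fewer cells of a state and less RNA per cell cannot be told apart.

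Under LPS/IFN-gamma the lysosome genes did not move as one. Transcripts of the regulator Tfeb and of several sugar-degrading enzymes fell, while cathepsin C, cathepsin Z, the cholesterol carrier Npc2, the membrane protein Cln3 and subunits of the proton pump rose. In WT clones 12 genes rose, 7 fell and 29 were not called, where 47.4% of all genes tested were called (23.8% higher and 23.6% lower). In KO clones 10 rose, 17 fell and 21 were not called, where 54.3% of all genes were called (26.7% higher and 27.6% lower). The shares called higher or lower in WT clones are near or below those of all genes. Medium and stimulated clones did not overlap for 18 of the 48 in WT and 34 in KO clones, where 50.5% and 70% of all genes did not overlap. Median log2 fold changes were -0.07 in WT and -0.23 in KO clones, against -0.01 over all genes in each. With the clone as a replicate block the WT response had 16 genes higher and 15 lower, and the KO response 16 higher and 21 lower, where 61.2% and 66.1% of all genes were called. The 17 lower in KO clones became 8, 8 and 10 without KO 1A, 1B or 2 (with 37.1%, 39.1% and 41% of all genes called) and 8 with KO 1A and 1B summed (39.2% called). The 7 lower in WT clones became 4 in a fit of only the WT groups (34.3% of all genes called). The plot of the KO against the WT response gives each gene with both errors.

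**Figure D1:**
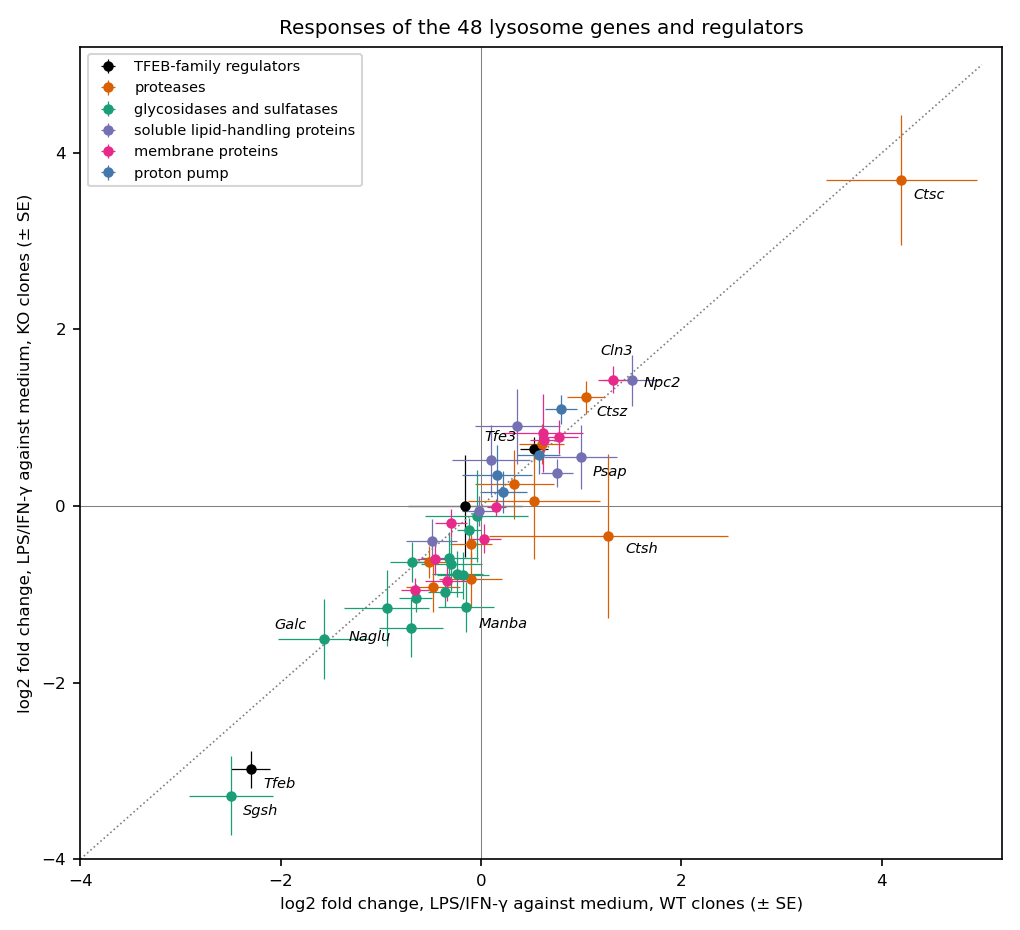
Log2 fold change of the 48 genes under LPS/IFN-gamma in KO clones (vertical) against WT clones (horizontal), with bars of 1 SE and a dotted line of equal response. Ctsc lies farthest up at 4.19 and 3.69, Sgsh and Tfeb lie lowest, and all 14 glycosidases and sulfatases lie below 0 on both axes.

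The 10 genes that rose in KO clones were among the 12 that rose in WT clones, and the 7 that fell in WT clones were among the 17 that fell in KO clones. As shares, the genes called higher in both were 83.3% of the WT and 100% of the KO calls, and those called lower in both were 100% of the WT and 41.2% of the KO calls. Over all genes the shares were 90.4% and 80.7% for higher and 89.6% and 76.4% for lower calls. The responses share no library. Tested directly with edgeR, the KO response minus the WT response was called for no gene (0% of all tested), with 3 of the 48 and 611 of all genes at an unadjusted p below 0.05. A gene called in one genotype alone is therefore not shown to respond differently. DESeq2 called 28 genes for that difference, none of them among the 48. With the clone as a replicate block 40 genes were called, and 1 was a lysosome gene: Ctsd, whose log2 difference was -0.70 ± 0.11 (adjusted p = 0.0401).

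How libraries were scaled mattered for the direction of calls. With library totals in place of TMM the median over all genes was -0.37 in the WT and -0.39 in the KO response, and the share of called genes that were higher went from 50.3% to 23.2% and from 49.1% to 24.5%. The lysosome genes then split into 5 higher and 16 lower in WT and 6 higher and 26 lower in KO clones. Rises of Ctsc, Ctsz, Npc2, Cln3 and Atp6v1h and falls of Tfeb, Sgsh, Man2b1 and Laptm5 in WT clones were called under all 14 alternatives. In KO clones so were the rises of these 5 genes and of Laptm4a, and the falls of these 4 and of Gusb, Naglu and Manba.

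Tfeb, the regulator that gives the family its name, was the regulator that fell. Its level in WT clones 1, 2 and 3 was 20.1, 20.1 and 28.7 CPM in medium and 4.47, 4.87 and 4.65 CPM under LPS/IFN-gamma. In KO clones 1A, 1B and 2 it was 19.2, 18.5 and 15.2 CPM in medium and 2.25, 2.64 and 1.75 CPM under LPS/IFN-gamma. Every stimulated library was below every library in medium, and the stimulated KO clones were all below the stimulated WT clones. The log2 fold change was -2.30 ± 0.20 in WT (adjusted p = 7.82e-06) and -2.98 ± 0.21 in KO clones (adjusted p = 1.62e-06). With 1 clone left out the highest adjusted p was 0.000165 in WT and 0.00023 in KO clones. The responses differed by -0.68 ± 0.28, which was not called (adjusted p = 0.944).

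Tfe3, the second of these factors, moved the other way. It read 54.0, 62.2 and 46.3 CPM in the WT clones in medium and 69.2, 91.9 and 73.1 CPM under LPS/IFN-gamma, and 60.7, 60.0 and 53.5 CPM in the KO clones in medium and 87.6, 84.8 and 100.3 CPM under LPS/IFN-gamma. The groups did not overlap within either genotype. Tfe3 rose by 0.53 ± 0.14 in WT (adjusted p = 0.00942) and 0.65 ± 0.14 in KO clones (adjusted p = 0.00246). On library totals alone it was not called (adjusted p = 0.292 and 0.101), and in a fit of only the WT groups its adjusted p was 0.052. Per length of exon, Tfe3 was at 14.96 CPM per kb in WT medium and Tfeb at 5.72.

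Mitf, best known for pigment cells and also active in bone-resorbing osteoclasts, differed more between clones than between conditions. WT clones 1, 2 and 3 had 150.7, 396.9 and 115.7 CPM in medium and 151, 293.7 and 148.6 CPM under LPS/IFN-gamma. KO clones 1A, 1B and 2 had 47.0, 52.1 and 127.6 CPM in medium and 54.5, 48.4 and 123.9 CPM under LPS/IFN-gamma. WT clone 2 stood above the other WT clones in both conditions and KO clone 2 above the other KO clones. The log2 fold change under LPS/IFN-gamma was -0.16 ± 0.57 in WT and 0.00 ± 0.58 in KO clones, neither called. KO against WT clones, Mitf stood at -1.55 ± 0.59 in medium (adjusted p = 0.262), where the groups overlapped. Under LPS/IFN-gamma it stood at -1.39, and every KO clone lay below every WT clone. Neither difference was called. Tfec, the remaining gene of this family, was on the list of other E-box factors, of which 6 of 7 genes were in the table. It was not among the called genes of that list, and its level is not reported here. The plot of regulator levels by clone shows all 12 libraries.

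**Figure D2:**
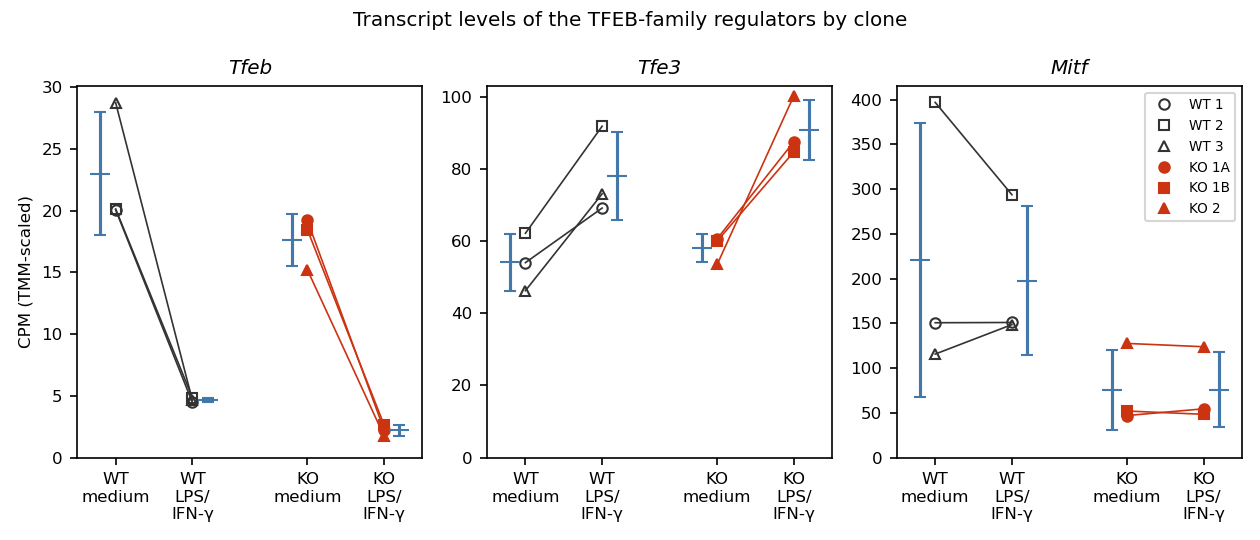
CPM of Tfeb, Tfe3 and Mitf in each library, with lines joining the 2 libraries of a clone and blue bars giving the mean ± SD of 3 clones. Tfeb falls from 15.2 to 28.7 CPM in medium to 1.75 to 4.87 CPM in every clone, Tfe3 rises in every clone, and Mitf lines keep the order of WT clone 2 and KO clone 2 above the others.

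Among the 10 proteases 3 rose and 1 fell in WT clones, and 3 rose and 3 fell in KO clones. The gene with the highest rise of all 48 was Ctsc, whose product cathepsin C (dipeptidyl peptidase I) trims and thereby activates serine proteases of immune granules. Ctsc went from 64.6, 305.6 and 122.4 CPM to 599.8, 4988 and 3428 CPM in WT clones, and from 91.6, 86.8 and 111 CPM to 1285, 1256 and 1202 CPM in KO clones. The stimulated WT clones spread widely and the stimulated KO clones hardly at all (coefficients of variation of 74.0% and 3.37%). Ctsc rose by 4.19 ± 0.75 in WT (adjusted p = 0.00119) and by 3.69 ± 0.74 in KO clones (adjusted p = 0.0018). Per length it moved from place 28 of 48 to place 3 in WT and from 32 to 5 in KO clones.

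Ctsz, a carboxypeptidase, and Ctss, which cuts the invariant chain during antigen presentation, were the other proteases that rose. Ctsz went from 454.2, 624.7 and 486.4 CPM to 935.1, 1359 and 937.4 CPM in WT and from 341.1, 368.5 and 394.8 CPM to 771.8, 778.4 and 1044 CPM in KO clones, with no overlap. Its log2 fold change was 1.05 ± 0.19 in WT (adjusted p = 0.001) and 1.23 ± 0.19 in KO clones (adjusted p = 0.000282). Ctss rose by 0.61 ± 0.22 (adjusted p = 0.0446) and 0.70 ± 0.22 (adjusted p = 0.0211). The Ctss call in WT was lost when any clone but WT 2 was left out (adjusted p up to 0.154), and the KO call when any KO clone was (up to 0.113). On library totals alone neither was called (0.341 and 0.214).

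Lgmn encodes legumain, an endopeptidase that cuts after asparagine. In WT clones 1, 2 and 3 it went from 587.9, 703.1 and 427.1 CPM to 397.5, 388.2 and 413.2 CPM, and in KO clones from 283.4, 322.4 and 355 CPM to 221.3, 234.5 and 164.4 CPM. It fell by 0.52 on the log2 scale in WT (SE 0.18, adjusted p = 0.0364) and by 0.63 in KO clones (SE 0.18, adjusted p = 0.0132). Leaving out WT 1, WT 2, KO 1A or KO 1B removed the WT call (adjusted p up to 0.197), and leaving out KO 2 removed the KO call (0.138). In KO clones the aspartic protease Ctsd (-0.83 ± 0.32, adjusted p = 0.0443) and the tripeptidyl peptidase Tpp1 (-0.92 ± 0.28, adjusted p = 0.0166) also fell. Those calls were lost without KO 1A or KO 1B and, for Ctsd, without WT 1 or WT 2, or for Tpp1, without KO 2 (adjusted p up to 0.125 and 0.0934). Exons of Ctsd overlap another gene model on the same strand over 34.4% of their length, so its counts could be split. Ctsa, Ctsb, Ctsh and Ctsl were not called in either genotype, with log2 fold changes of -0.44 to 1.27. With the clone as a replicate block Ctsb (0.40 ± 0.14, adjusted p = 0.0269) and Ctsh (1.203 ± 0.412, adjusted p = 0.0293) were called higher and Tpp1 lower (-0.48 ± 0.08, adjusted p = 0.000791) in WT clones, and Ctsa lower in KO clones (-0.43 ± 0.08, adjusted p = 0.0011).

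The 14 glycosidases and sulfatases, which strip sugars and sulfate from glycoproteins, glycolipids and glycosaminoglycans, all had log2 fold changes below 0 in both genotypes; Gaa, nearest to 0, turned to 0.002 in WT without WT 2 and to 0.009 in KO clones without KO 1B. Of the 14, 4 fell in WT (Sgsh, Galc, Man2b1 and Neu1) and 10 fell in KO clones, and none rose. Of all genes tested 23.6% fell in WT and 27.6% in KO clones. The median was -0.34 in WT and -0.88 in KO clones, and the median difference between the responses was -0.37, with none of the 14 called. The count in KO clones was 5 without any 1 of the KO clones (37.1% to 41% of all genes called, higher or lower). It was also 5 with KO 1A and 1B summed (39.2% called). In WT clones it was 2 in a fit of only the WT groups (34.3% called) and 8 on library totals alone (55.8% called). With the clone as a replicate block 8 of the 14 fell in WT and 12 in KO clones, where 61.2% and 66.1% of all genes were called. In the WT response Gusb, Naglu, Glb1 and Arsb were the genes added by the block, and in the KO response Gla and Glb1.

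Sgsh, which encodes the heparan sulfate sulfamidase, fell most of the 48 genes. WT clones 1, 2 and 3 had 46.8, 52.6 and 22.6 CPM of Sgsh in medium and 9.40, 9.02 and 3.13 CPM under LPS/IFN-gamma, and KO clones 1A, 1B and 2 had 29.2, 29.8 and 33.2 CPM and then 2.35, 2.64 and 4.49 CPM. No stimulated library reached the lowest library in medium. The log2 fold change was -2.50 ± 0.42 in WT (adjusted p = 0.000698) and -3.28 ± 0.45 in KO clones (adjusted p = 0.000146). Sgsh shares 21.6% of its exon length with a gene on the other strand, and whether counting used strand is not given in the sources used here.

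Galc, the galactosylceramidase of myelin lipid breakdown, was at 11.1 ± 4.88 CPM in WT medium and 3.75 ± 2.66 CPM under LPS/IFN-gamma (SD, n = 3), and at 13.5 ± 2.34 and 4.73 ± 1.31 CPM in KO clones. It fell by 1.57 in WT (SE 0.46, adjusted p = 0.016) and by 1.51 in KO clones (SE 0.45, adjusted p = 0.0158). The WT call was lost without WT 1 (0.0647) and the KO call without any 1 of the KO clones (up to 0.0843). Man2b1, the alpha-mannosidase, was at 114.2 ± 13.4 and 72.6 ± 5.52 CPM in WT and at 137.1 ± 14.4 and 66.6 ± 16.3 CPM in KO clones. It fell by 0.65 (SE 0.16, adjusted p = 0.00671) and by 1.04 (SE 0.16, adjusted p = 0.000325). The sialidase Neu1 fell by 0.69 (SE 0.22, adjusted p = 0.0248) and by 0.64 (SE 0.22, adjusted p = 0.0319). Its WT call was lost without WT 2 or WT 3 (up to 0.088) and its KO call without any 1 of the KO clones (up to 0.167).

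The 6 genes of this class called lower in KO clones alone were Gusb (beta-glucuronidase), Naglu (the N-acetylglucosaminidase of heparan sulfate), Manba (beta-mannosidase), Arsb (arylsulfatase B), Hexa (a beta-hexosaminidase subunit) and Fuca1 (fucosidase). Gusb, at 336.1, 346.6 and 362.4 CPM in KO clones in medium, was at 150, 181 and 202.4 CPM under LPS/IFN-gamma, and in WT clones it went from 353.4, 362.4 and 329.6 CPM to 328.7, 295.5 and 192.2 CPM. In medium the Gusb levels of WT and KO clones overlapped, and under LPS/IFN-gamma only KO 2 lay within the WT range. Its log2 fold change was -0.97 ± 0.18 in KO (adjusted p = 0.000898) and -0.36 ± 0.18 in WT clones (adjusted p = 0.118). For Manba they were -1.14 ± 0.29 (adjusted p = 0.00626) and -0.15 ± 0.28 (adjusted p = 0.683), and for Naglu -1.38 ± 0.33 (adjusted p = 0.00464) and -0.70 ± 0.32 (adjusted p = 0.093). The differences between the responses were -0.61 ± 0.25 for Gusb, -0.99 ± 0.40 for Manba and -0.68 ± 0.46 for Naglu, none called. The KO calls of Hexa, Arsb and Fuca1 were lost without any 1 of the KO clones, and that of Arsb also without WT 3 (adjusted p up to 0.112, 0.18 and 0.0899).

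Among the 7 soluble lipid-handling genes 3 rose in WT clones and 1 in KO clones, and none fell. Npc2, which hands cholesterol to the membrane transporter NPC1, went from 220.7, 310.5 and 229 CPM to 589.2, 751.3 and 811.9 CPM in WT and from 130.5, 133.5 and 237.4 CPM to 369.9, 356.2 and 618.8 CPM in KO clones. The groups did not overlap in either genotype. Npc2 rose by 1.501 ± 0.285 (adjusted p = 0.00152) and 1.42 ± 0.29 (adjusted p = 0.00168). Npc1 itself, at 87.3 ± 22.2 CPM in WT medium and 71.0 ± 4.25 CPM under LPS/IFN-gamma, was not called (-0.30 ± 0.16 in WT and -0.19 ± 0.16 in KO clones).

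Psap, the precursor of the saposins that help hydrolases reach their lipids, and Ppt1, a palmitoyl-protein thioesterase, were the others that rose in WT clones. Psap rose by 0.99 ± 0.36 in WT (adjusted p = 0.0438) and stood at 0.55 ± 0.36 in KO clones (adjusted p = 0.219). Without any clone but WT 2 the WT call was lost (adjusted p up to 0.0968), and so it was on library totals alone (0.142). Ppt1 rose by 0.76 ± 0.16 in WT (adjusted p = 0.00272) and stood at 0.38 ± 0.16 in KO clones (adjusted p = 0.0668). On library totals alone its WT value was not called (0.0507). With the clone as a replicate block Psap, Ppt1, Lipa (acid lipase) and Grn (progranulin) were called higher in KO clones too, and Pla2g15, a phospholipase, was called lower in WT clones. Asah1, the acid ceramidase, was close to level, at -0.02 ± 0.17 and -0.05 ± 0.17.

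Of the 10 membrane proteins 3 rose in both genotypes: Cln3, Laptm4a and Lamp2. Cln3, mutated in juvenile neuronal ceroid lipofuscinosis, went from 55.4, 54.2 and 61.2 CPM to 113.3, 132.2 and 180.5 CPM in WT and from 54.4, 51.2 and 58.0 CPM to 145.2, 136.8 and 158.2 CPM in KO clones. Its level in medium was tight across all 6 clones, and all 6 stimulated libraries lay well above it. It rose by 1.32 ± 0.15 (adjusted p = 5.91e-05) and 1.43 ± 0.15 (adjusted p = 2.6e-05). Laptm4a rose by 0.62 ± 0.13 (adjusted p = 0.00309) and 0.75 ± 0.13 (adjusted p = 0.000792), a WT call lost on library totals alone (0.0766). Lamp2, a coat protein of the lysosome also needed for chaperone-mediated autophagy, rose by 0.78 ± 0.19 (adjusted p = 0.00653) and 0.78 ± 0.19 (adjusted p = 0.00506). The Lamp2 calls were lost without WT 3 in WT (0.0729) and without KO 1A in KO clones (0.0566), and both on library totals alone (0.0707 and 0.0733).

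Laptm5, a lysosomal protein of blood cells that lowers receptor signalling, fell in both. It went from 367.6, 399.1 and 367.8 CPM to 233, 236.2 and 248.3 CPM in WT clones and from 289, 340.7 and 238.5 CPM to 135.8, 176.1 and 136.6 CPM in KO clones, without overlap. Its log2 fold change was -0.66 ± 0.14 (adjusted p = 0.00274) and -0.95 ± 0.14 (adjusted p = 0.000223). Mcoln1, the calcium channel TRPML1, and the macrophage marker Cd68 were called in KO clones, at -0.60 ± 0.19 (adjusted p = 0.0182) and -0.85 ± 0.23 (adjusted p = 0.00847), and both calls were lost without KO 1A or KO 1B (up to 0.141 and 0.071). In WT clones they stood at -0.46 ± 0.18 and -0.34 ± 0.23, and the block called both lower (adjusted p = 0.00972 and 0.0151). Cd63 stood at 0.62 ± 0.40 in WT and 0.83 ± 0.44 in KO clones and was called higher in both under the block (adjusted p = 0.00681 and 0.00679), and Scarb2 was called lower in KO clones (-0.36 ± 0.12, adjusted p = 0.0202). Lamp1, the most used lysosome marker, was not called in either genotype, at 0.15 ± 0.09 and -0.02 ± 0.09. It read 598.9 to 652.9 CPM in WT medium and 673 to 734.9 CPM in stimulated WT clones, which did not overlap, and 602.3 to 657 CPM and 597.5 to 673.6 CPM in KO clones, which did.

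The 4 proton pump genes had log2 fold changes above 0 in both genotypes, which for Atp6v1a and Atp6ap1 turned below 0 on library totals alone, and Atp6v1h and Atp6v0d1 rose in both. Atp6v1h, the H subunit of the cytosolic V1 sector, went from 167.3, 140.3 and 113.6 CPM to 280.9, 254.1 and 197.8 CPM in WT and from 107.1, 103.3 and 119.8 CPM to 236.9, 213.2 and 254.8 CPM in KO clones, without overlap. It rose by 0.80 ± 0.16 (adjusted p = 0.00203) and 1.09 ± 0.16 (adjusted p = 0.000224). Atp6v0d1, of the membrane V0 sector, rose by 0.57 ± 0.21 (adjusted p = 0.0457) and 0.58 ± 0.21 (adjusted p = 0.0405). Its WT call was lost without WT 1, WT 3, KO 1A or KO 1B (up to 0.11), its KO call without WT 1 or any 1 of the KO clones (up to 0.149), and both on library totals alone (0.378 and 0.424). Atp6v1a, the catalytic subunit, was at 576.7 ± 278.3 CPM in WT medium and 644.2 ± 181.8 CPM under LPS/IFN-gamma, a change of 0.16 ± 0.35, and of 0.35 ± 0.35 in KO clones. The accessory subunit gene Atp6ap1 changed by 0.22 ± 0.24 and 0.16 ± 0.24. Neither was called, and the block added Atp6ap1 in WT and Atp6v1a in KO clones. The heat map gives each gene's response in each clone.

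**Figure D3:**
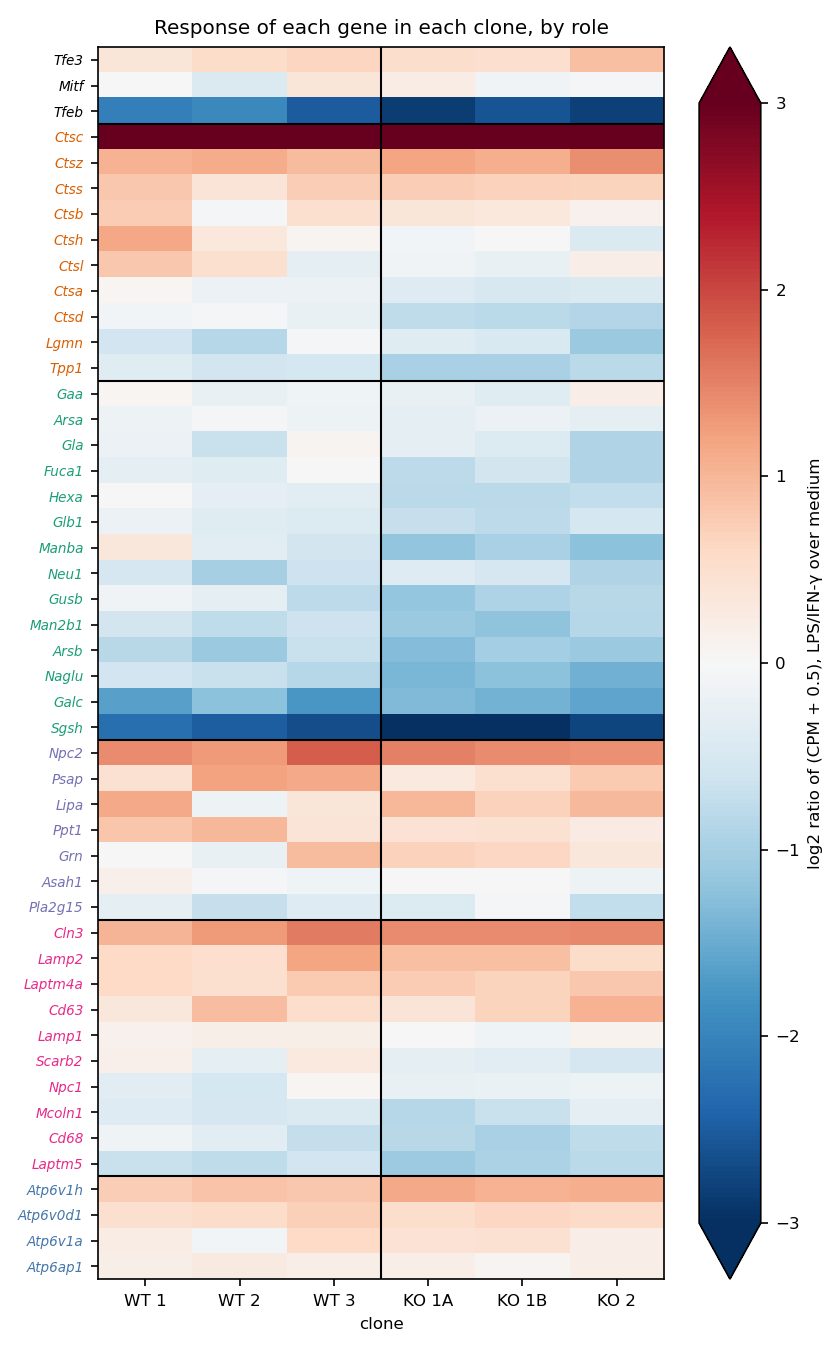
Log2 ratio of CPM + 0.5 under LPS/IFN-gamma over medium for the 48 genes (rows, grouped by role with black lines) in each clone (columns), red for higher and blue for lower, with colours saturating at 3. Ctsc is red and Tfeb and Sgsh are blue in all 6 clones, and the block of glycosidases and sulfatases is mostly blue.

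Genes with and without the E-box both moved in both directions. Of the 14 genes with TCACGTG in the promoter window, 2 rose (Cln3 and Atp6v0d1) and 2 fell (Sgsh and Lgmn) in WT clones, with a median log2 fold change of -0.11. Of the 29 without it 9 rose and 5 fell, with a median of 0.03. In KO clones the counts were 2 higher and 5 lower with it (median -0.51) and 7 higher and 12 lower without it (median 0.00). Of all genes tested 23.8% were called higher and 23.6% lower in WT clones, and 26.7% and 27.6% in KO clones. The part of E-boxes in these responses was not tested. Lamp1, whose window holds 4 E-boxes, was not called in any comparison, and Tfeb, whose window holds none, fell in both genotypes.

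Per length, the highest levels in WT medium were those of Ctsd at 467.5 ± 76.2 CPM per kb of exon, Ctss at 410.6 ± 153.3, Cd68 at 397 ± 85.2, Ctsz at 362.1 ± 62.9 and Lipa at 285.7 ± 165.4. Their SDs overlap from one neighbour to the next, so the order within these 5 is not firm. Lamp1 at 283.9, Lgmn at 283.8 and Ctsb at 275.9 CPM per kb were next and close to Lipa, which came at place 12 when exons of all annotated transcripts were counted. Under LPS/IFN-gamma Ctsz led in both genotypes, at 747.5 ± 169.3 in WT and 600 ± 107.6 in KO clones. The lowest gene in WT medium was Ctsh, at 0.37 ± 0.27 CPM before division by length.

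**Figure D4:**
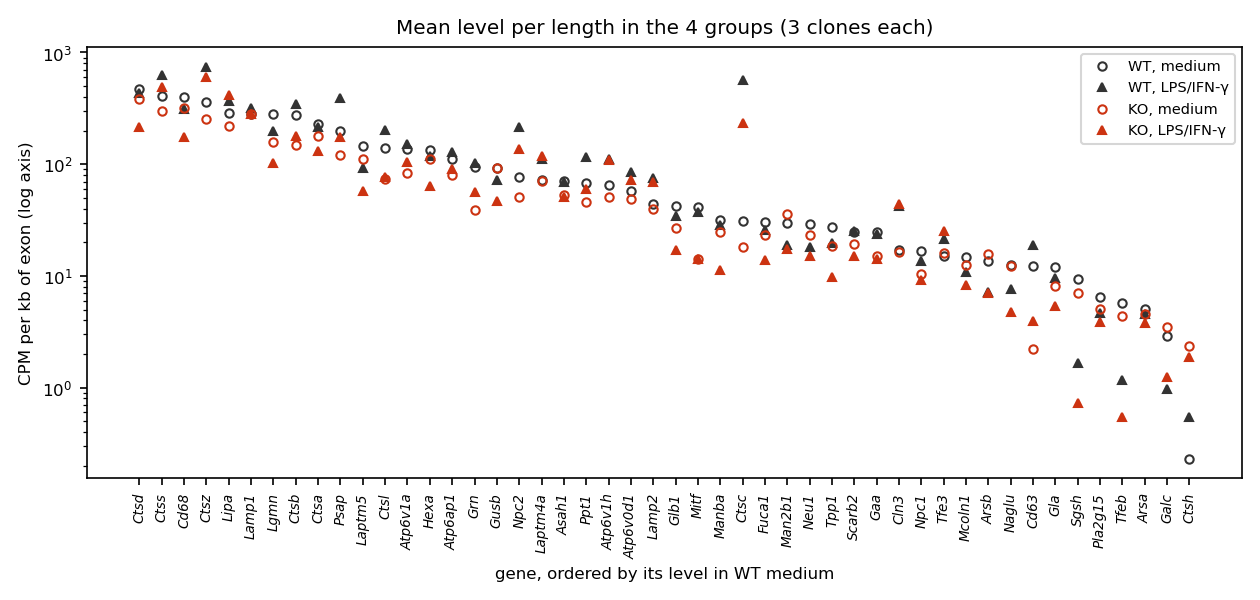
Mean CPM per kb of exon (log axis) of each gene in the 4 groups of 3 clones, ordered by the level in WT medium. Ctsc moves up from 30.8 to 564.2 in WT clones, Sgsh and Tfeb drop under LPS/IFN-gamma, and Cd63 is low in both KO groups.

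KO clones had lower levels than WT clones for most of the 48 genes, and few differences passed the test. In medium 1 gene was called lower (Cd63) and none higher, where 1.21% of all genes were called (0.858% lower). An unadjusted p below 0.05 was found there for 12 of the 48 and for 1720 of all 12231 genes tested. Under LPS/IFN-gamma 7 were called lower and none higher, where 4.64% of all genes were called (3.51% lower). The unadjusted p was below 0.05 for 25 of the 48 and for 2596 of all 12231 genes. The median log2 difference was -0.37 in medium and -0.68 under LPS/IFN-gamma, against -0.01 and -0.02 over all genes. The median in medium was -0.19 without WT 2 and -0.52 without KO 2. Groups did not overlap for 8 genes in medium and 20 under LPS/IFN-gamma, where 20.9% and 24% of all genes did not overlap. The plot of KO against WT gives every gene in both conditions.

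**Figure D5:**
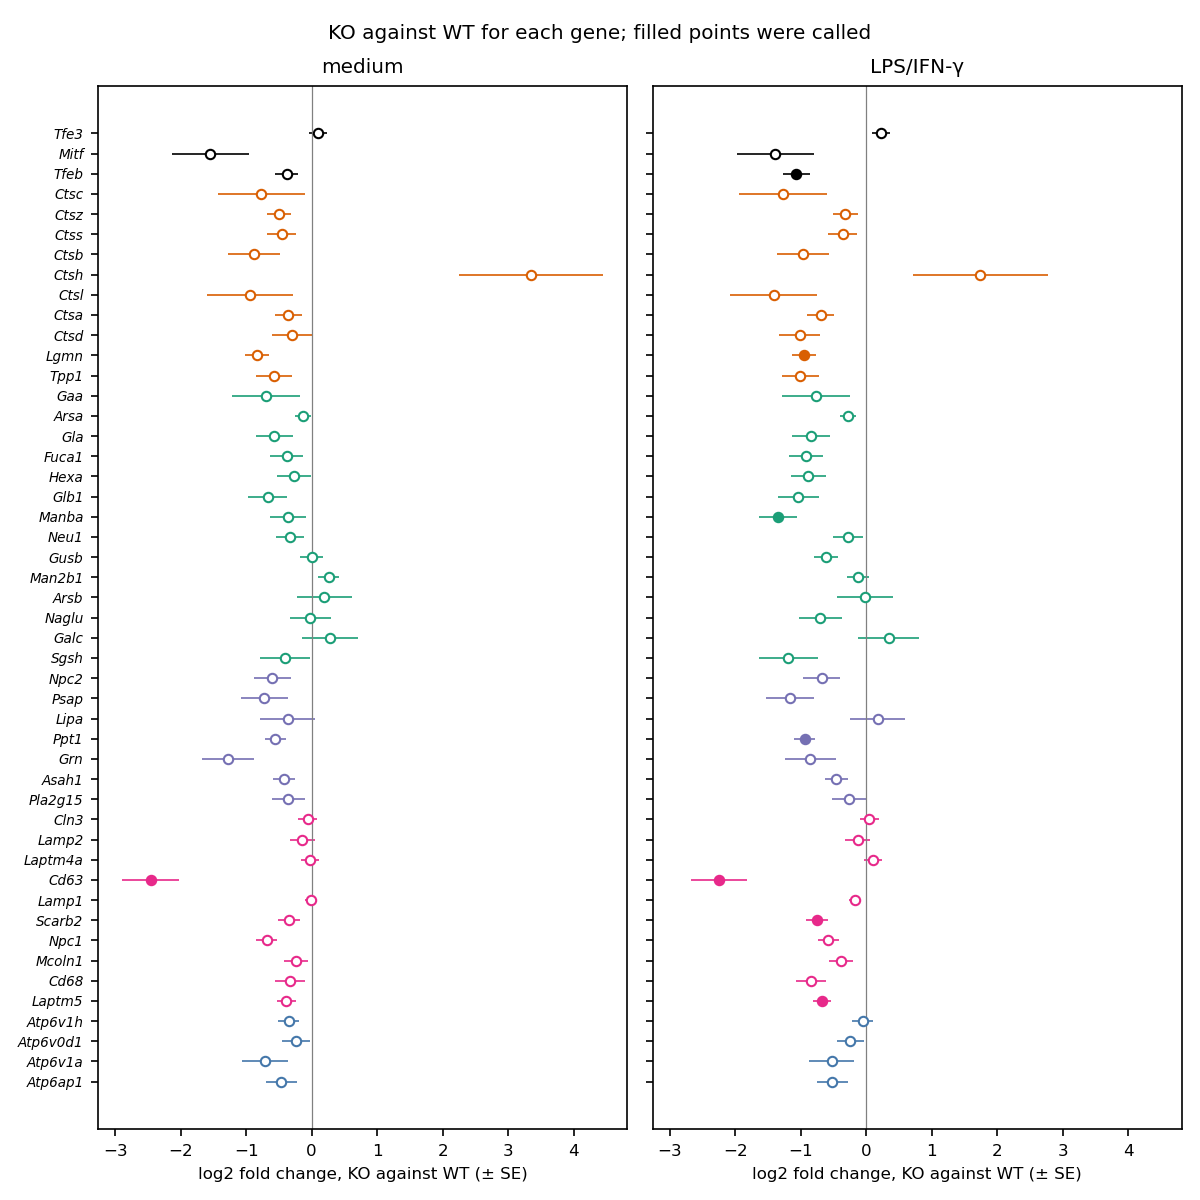
Log2 fold change of KO against WT clones for each gene in medium (left) and under LPS/IFN-gamma (right), with bars of 1 SE and filled points for called genes. Most points lie left of 0 in both panels, Cd63 lies lowest at -2.46 and -2.25, and Ctsh lies to the right with wide errors.

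Cd63, a tetraspanin of late endosomes and exosomes, was called in both conditions. WT clones 1, 2 and 3 had 25.1, 18.7 and 9.33 CPM in medium and KO clones 1A, 1B and 2 had 3.15, 2.98 and 3.54 CPM. Under LPS/IFN-gamma WT clones had 31.9, 36.0 and 13.6 CPM and KO clones 4.30, 4.99 and 7.88 CPM. No KO clone reached the lowest WT clone. The log2 difference was -2.46 ± 0.44 in medium (adjusted p = 0.0239) and -2.25 ± 0.43 under LPS/IFN-gamma (adjusted p = 0.0179). The call in medium was lost when any clone but WT 3 was left out (adjusted p up to 0.243), and the other without WT 2, KO 1A or KO 1B (up to 0.177).

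The other 6 called under LPS/IFN-gamma were Tfeb, Lgmn, Manba, Ppt1, Laptm5 and Scarb2, the last encoding the receptor that carries glucocerebrosidase to the lysosome. Tfeb differed by -1.07 ± 0.21 (adjusted p = 0.02), Lgmn by -0.95 ± 0.18 (adjusted p = 0.0179) and Manba by -1.35 ± 0.29 (adjusted p = 0.0272). Ppt1 differed by -0.94 ± 0.16 (adjusted p = 0.0118), Laptm5 by -0.68 ± 0.14 (adjusted p = 0.024) and Scarb2 by -0.75 ± 0.16 (adjusted p = 0.0279). In each of the 6 the stimulated KO clones lay below all stimulated WT clones. Scarb2, for example, was at 115.2, 113.1 and 127.2 CPM in WT and 67.3, 64.1 and 79.9 CPM in KO clones. In medium the same genes stood at -0.38 ± 0.18 for Tfeb, -0.84 ± 0.18 for Lgmn (adjusted p = 0.0551) and -0.56 ± 0.16 for Ppt1, not called. The differences in medium and under LPS/IFN-gamma come from different libraries of the same clones.

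The calls between genotypes depended on the fit and on the clones. With all clones kept but only the groups compared in the fit, none of the 7 under LPS/IFN-gamma was called, where 0.834% of all genes were. Without KO 1A none of the 7 was called (adjusted p of 0.122 to 0.211), and without KO 1B 1 was. Of all genes 0.389% and 0.56% were called then. Without WT 1, WT 2 or KO 2 there were 4, 5 and 5 genes called lower, where 3.27%, 4.18% and 2.33% of all genes were called. Without WT 3 there were 15, where 7.89% of all genes were called. Taking KO 1A and 1B as 1 clone left none called in either condition, where 0.13% of all genes were called in medium and 0.591% under LPS/IFN-gamma. DESeq2 called 17 lower under LPS/IFN-gamma, and 5 lower and 1 higher in medium, where it called 10.1% and 4.96% of all genes.

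Clones of one genotype differed in these genes in a shared way. WT clone 2 was the highest WT clone in medium for 39 of the 48 genes and WT clone 3 the lowest for 35, where WT clone 2 was highest for 37.5% and WT clone 3 lowest for 33.8% of all genes. KO clone 2 was the highest KO clone for 40 of the 48 in medium, against 43.4% of all genes. KO clones 1A and 1B were close in medium, with a median fold difference of 1.06 and a highest of 1.2 (Grn). KO clone 2 differed from their mean by a median fold of 1.25. These folds are the larger value over the smaller and carry no direction. Summed macrophage markers, of which Cd68 is also one of the 48 genes, were likewise highest in WT clone 2 and KO clone 2 and lowest in WT clone 3. In medium they read 13700, 18700 and 8170 CPM in WT clones 1, 2 and 3 and 4670, 4410 and 13700 CPM in KO clones 1A, 1B and 2. Under LPS/IFN-gamma the sums were 15500, 18500 and 9000 CPM and 5590, 5440 and 11500 CPM.

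The largest part of that sum in medium was Lyz2, the lysozyme of myeloid granules, at 10320, 14800 and 4989 CPM in WT and 2106, 1790 and 10560 CPM in KO clones. Csf1r, too, was highest in WT clone 2 and KO clone 2 in medium (2725 and 1897 CPM). Other single markers had other orders: Cd14 was lowest in WT clone 2 (121.2 CPM) and Fcgr1 in KO clone 2 (3.86 CPM). None of the 10 macrophage markers was higher in KO clones by the test, and Itgam was lower in medium. For osteoclasts, a cell type RAW264.7 cells can become, 6 of 7 markers were in the table, with sums of 108 to 295 CPM in WT medium, 69 to 131 CPM in KO medium, 125 to 342 CPM in stimulated WT and 73.5 to 129 CPM in stimulated KO clones. Nfatc1 made up most of the sum in WT medium (183.6 CPM). Under LPS/IFN-gamma only Mmp9 of these 6 stood higher in KO than in WT clones. It read 37.4 CPM in KO and 3.26 CPM in WT clones, a log2 difference of 3.52 ± 0.56 (adjusted p = 0.00808). Dcstamp was called lower (14.3 against 130.3 CPM, -3.19 ± 0.59, adjusted p = 0.0177). Acp5 (-2.58), Ocstamp (-2.22), Ctsk (-1.13) and Nfatc1 (-0.58) stood lower too, but were not called. In medium Mmp9 was again the only one of the 6 that stood higher in KO clones, and none was called. Dendritic cell markers (4 of 7) summed to 1.93 to 30.1 CPM in WT medium, 1.2 to 2.47 CPM in KO medium, 16.2 to 80.2 CPM in stimulated WT and 13 to 14.5 CPM in stimulated KO clones. The part of these markers' states in the differences between genotypes was not tested.

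Other genes of the pathway came from 7 further lists. Beside their counts, 47.4% of all genes were called in the WT and 54.3% in the KO response, and 61.2% and 66.1% with the clone as a replicate block. In the list of other E-box factors, 2 of 6 rose and 2 fell in each genotype. Max, the partner of MYC, rose by 1.41 ± 0.13 in WT (adjusted p = 1.42e-05) and 1.30 ± 0.13 in KO clones (adjusted p = 1.72e-05), and Mlx rose by 0.69 ± 0.14 and 0.84 ± 0.14. Usf2, which binds the same core E-box, fell by 0.85 in WT (SE 0.12) and by 1.15 in KO clones (SE 0.12), and Mxi1 fell by 1.02 and 1.17. The list of genes that control where TFEB sits (mTORC1, Rag, Ragulator, folliculin and calcineurin genes) had 6 higher and 4 lower of 24 in WT and 6 and 6 in KO clones. Rheb, the GTPase that switches mTORC1 on, rose by 0.46 ± 0.10 and 0.78 ± 0.10, Lamtor3 by 0.55 ± 0.10 and 0.50 ± 0.10, and Rraga by 0.50 ± 0.16 and 0.79 ± 0.16. The WT calls of Rraga and Ppp3ca were lost without WT 2 (adjusted p = 0.0947 and 0.079). The calcineurin subunit Ppp3ca fell by 0.73 and 1.16, and Rptor, the mTORC1 scaffold raptor, fell by 0.82 in WT clones (SE 0.19, adjusted p = 0.00499) and stood at -0.06 ± 0.19 in KO clones, a difference that was not called (adjusted p = 0.829).

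Of the 15 other V-ATPase genes 5 rose and 1 fell in WT clones, and 7 rose and 1 fell in KO clones. With the block the WT counts were 8 and 2 and the KO counts 7 and 2. Atp6v1b2 rose by 0.83 ± 0.22 and 0.82 ± 0.22 and Atp6v1d by 0.66 ± 0.15 and 0.60 ± 0.15. Their KO calls were lost without KO 1A and, for Atp6v1b2, also without KO 1B (up to 0.0676 and 0.0684). The gene that fell, Atp6v0e2, went from 36.7 ± 4.17 to 24.0 ± 1.32 CPM in WT and from 34.4 ± 3.47 to 16.2 ± 1.07 CPM in KO clones (-0.61 ± 0.12 and -1.085 ± 0.121), and it was lower in KO than in WT clones under LPS/IFN-gamma (-0.57 ± 0.12, adjusted p = 0.0267). On library totals alone none of the 15 rose in either genotype.

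The 30 other hydrolases and activators had none higher in either genotype, 4 lower in WT and 10 lower in KO clones. With the block 13 were lower in WT, and in KO clones 17 were lower and 2 higher. Dnase2a, the acid nuclease that digests engulfed DNA, went from 147.3 ± 24.4 to 59.5 ± 23.1 CPM in WT and from 120.9 ± 13.5 to 24.8 ± 1.63 CPM in KO clones. It fell by 1.31 (SE 0.24, adjusted p = 0.00112) and by 2.28 (SE 0.25, adjusted p = 3.15e-05), and was lower in KO than in WT clones under LPS/IFN-gamma (-1.26 ± 0.24, adjusted p = 0.0179). Idua and Hgsnat, of heparan sulfate breakdown like Sgsh and Naglu, fell as well, Idua by 1.18 and 1.13 and Hgsnat by 0.94 and 1.73. The Hgsnat call in WT was lost without WT 3 (adjusted p = 0.0647). Aga fell by 0.87 in KO clones. Under LPS/IFN-gamma Scpep1 and Aga were also lower in KO than in WT clones (-1.17 ± 0.18 and -0.76 ± 0.16).

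Among 24 other membrane genes 2 rose and 6 fell in WT clones, and 3 rose and 10 fell in KO clones. With the block the counts were 5 and 9 in WT and 4 and 11 in KO clones. Slc15a3, a lysosomal exporter of histidine and bacterial peptides, went from 7.80 ± 5.12 to 161.3 ± 53.4 CPM in WT and from 6.18 ± 0.92 to 125.2 ± 42.7 CPM in KO clones, a rise of 4.35 ± 0.47 (adjusted p = 5.44e-05) and 4.34 ± 0.48 (adjusted p = 4.2e-05). The channel gene Tpcn1 fell by 2.30 (SE 0.32) and by 2.70 (SE 0.33), the sialic acid exporter Slc17a5 by 2.23 and by 2.18, and Tmem9 by 1.02 and by 1.34. Clcn7, the chloride-proton exchanger, was lower in KO than in WT clones under LPS/IFN-gamma (-0.86 ± 0.20, adjusted p = 0.0393).

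In the list of genes that sort hydrolases by mannose 6-phosphate 5 of 14 rose and 4 fell in each genotype. M6pr, the cation-dependent receptor, went from 482.3 ± 71.3 to 1002 ± 31.8 CPM in WT and from 419.8 ± 105.7 to 1008 ± 69.8 CPM in KO clones (1.05 ± 0.17 and 1.26 ± 0.17). Vps26a of the retromer rose by 0.85 ± 0.13 and 0.82 ± 0.13, and Ap1g1 by 0.56 ± 0.08 and 0.68 ± 0.08. The adaptor gene Gga2 fell by 1.69 (SE 0.21) and by 1.88 (SE 0.22).

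The autophagy list had 8 higher and 5 lower of 26 in WT and 11 and 5 in KO clones. Atg16l1 rose by 0.82 ± 0.08 and 0.71 ± 0.08, the receptor gene Tax1bp1 by 0.62 ± 0.09 and 0.59 ± 0.09, and Atg3, which on library totals alone was at -0.07 in KO clones, by 0.50 ± 0.08 and 0.31 ± 0.08. The KO call of Atg3 was lost without KO 1A or KO 2 (up to 0.0835). Plekhm1, which tethers autophagosomes to lysosomes, fell by 1.00 (SE 0.20) and by 1.52 (SE 0.21). Under LPS/IFN-gamma Atg3, Atg7 and Plekhm1 were lower and Uvrag higher in KO than in WT clones (-0.41 ± 0.08, -1.07 ± 0.26, -0.84 ± 0.21 and 1.02 ± 0.23). Each of the 9 list genes called between genotypes under LPS/IFN-gamma lost its call without KO 1A, without KO 1B and in a fit of only the groups compared, with adjusted p up to 0.283 when a clone was left out. In medium no list gene was called between genotypes. Of the 7 lists, no gene was called for the difference between the responses, with or without the block.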

How the data were processed

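RNA of 12 libraries was analysed, in 4 groups of 3 clones named by the labels. The authors deposited 1 table of whole-number counts per Ensembl gene, not normalized; per the submitters' processing notes the build was mm10 (GRCm38) and DESeq2 was used, with no version or role named. Which aligner, counter and strand setting made the counts is not given in the sources used here. In the table were 12483 genes, of which 12305 IDs matched a symbol in GENCODE M21 and 178 did not, and 66 values were in exponent form. Total counts of 10624591 to 14388590 per library set the precision of low genes.

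Genes were tested with edgeR 4.0.16 in R 4.3.3: filterByExpr (252 genes left out), TMM, a robust quasi-likelihood model of all 12 libraries with a mean for each group (8 residual degrees of freedom, common coefficient of variation 23.6%), and Benjamini-Hochberg adjustment over 12231 genes, called below 0.05. The fit was tested on simulated data. SE is the fold change over the square root of F. Levels per length used the union of exons of GENCODE's basic transcripts. E-boxes were searched in RefSeq promoters of GRCm38.p6.

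The labels give each clone a library in both conditions, which pairs them. Deviations from group means correlated at 0.642, 0.70 and 0.62 for WT clones 1, 2 and 3 and at 0.321, 0.287 and 0.508 for KO clones 1A, 1B and 2. The fit with clone as a replicate block (4 residual degrees of freedom) is given beside calls it changes in the 48 genes and counts it moves.

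Other settings tried were no filter, RLE, library totals, the block, only the compared groups, a fold threshold of 1.2, KO 1A and 1B summed, DESeq2 1.42.0 and each clone left out. Exon length over all transcripts was an alternative chosen after seeing the data. The genes, lists, markers and tests were chosen with earlier results of these data known. Named genes were the regulators, the proton pump, up to 3 called genes per direction, role and response with the smallest p, all called between genotypes, the 5 highest per length, and up to 3 called genes of each further list. Genes outside this rule (Arsb, Hexa, Fuca1, Tpp1, Lamp1, Npc1, Asah1, Grn, Pla2g15, Mlx and others named beside counts) were chosen after their values were seen.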

Additional observations from a re-analysis of the deposited data

Results flagged for a closer look

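Ctsh, an aminopeptidase of the lysosome, was flagged because its response went one way in every WT clone and the other way in every KO clone. Log2 ratios of CPM + 0.5 under LPS/IFN-gamma over medium were 1.15, 0.32 and 0.08 in WT clones 1, 2 and 3 and -0.07, -0.02 and -0.43 in KO clones 1A, 1B and 2. In edgeR's fit the KO response minus the WT response was -1.61 ± 1.51 (adjusted p = 1), so the difference was not called. Levels were low, from 0.06 to 1.73 CPM in WT libraries and from 1.33 to 8.55 CPM in KO libraries, with KO clone 2 the highest.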

How the results depend on the processing

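Of 203 values for single genes, 119 were called, and 45 of these lost the call when at least 1 clone was left out. RLE size factors, no filter and DESeq2 ended no call, and the replicate block, run for the responses and their difference, ended none there. Among called values 1 changed direction: Atg3 in KO clones on library totals alone, at -0.07017 (adjusted p = 0.485). The lysosome genes counted here are the 48, and the cause of a moved count was not tested.

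On library totals alone the lysosome genes had 5 higher and 16 lower in WT and 6 higher and 26 lower in KO clones. Of all genes 55.8% were called in WT and 59.8% in KO clones, and 23.2% and 24.5% of those called were higher. The lists then had, in WT and KO clones, autophagy 3 and 4 higher and 11 and 11 lower, mannose 6-phosphate sorting 2 and 3 higher, other hydrolases 11 and 19 lower, other V-ATPase genes 0 and 0 higher and 2 and 2 lower, and TFEB control genes 0 and 2 higher and 15 and 14 lower. Other membrane genes had 12 lower in WT and 1 higher in KO clones, and other E-box factors 1 higher in WT clones.

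With the clone as a replicate block 15 lysosome genes were lower in WT, 16 higher in KO clones and 1 lower for the difference between responses. Of all genes 61.2%, 66.1% and 0.327% were called there. Fits of only the compared groups gave 4 lower in WT clones and 0 lower between genotypes under LPS/IFN-gamma, where 34.3% and 0.834% of all genes were called. A fold threshold of 1.2 gave 4 lower between genotypes under LPS/IFN-gamma, where 1.76% of all genes were called. KO 1A and 1B summed gave 8 lower in the KO response and 0 and 0 between genotypes. The all-gene shares were then 39.2% in the KO response and, between genotypes, 0.13% in medium and 0.591% under LPS/IFN-gamma. DESeq2 gave 1 higher and 5 lower between genotypes in medium and 17 lower under LPS/IFN-gamma, where it called 4.96% and 10.1% of all genes. With 1 clone left out, counts lower ran from 8 to 18 in the KO response, from 0 to 7 between genotypes in medium (7 without WT 3) and from 0 to 15 under LPS/IFN-gamma (15 without WT 3, 0 without KO 1A). In the same order, the shares of all genes called ran from 37.1% to 58.4%, from 0.113% to 3.4% and from 0.389% to 7.89%.

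Without the 20 most abundant genes in the total, membrane genes took 0.2677% and 0.2232% of counts in WT medium and stimulated WT libraries and 0.2399% and 0.183% in the KO ones, glycosidases and sulfatases 0.1564% in KO medium, and the proton pump 0.09963% in stimulated KO libraries.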

Other observations

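Summed over their transcripts, the 48 genes took 1.46 ± 0.37% of counts in WT medium, 1.62 ± 0.34% in stimulated WT, 1.09 ± 0.19% in KO medium and 1.03 ± 0.15% in stimulated KO libraries (SD, n = 3 each). Glycosidases and sulfatases took 0.155 ± 0.030% in WT medium and 0.0941 ± 0.026% under LPS/IFN-gamma, and 0.142 ± 0.014% and 0.0588 ± 0.0073% in KO clones, where every stimulated library was below every library in medium within each genotype. Proteases took 0.658 ± 0.169% and 0.867 ± 0.211% in WT and 0.450 ± 0.117% and 0.468 ± 0.065% in KO clones, with overlapping groups. Membrane proteins took 0.241 ± 0.025% and 0.199 ± 0.0093% in WT and 0.217 ± 0.0080% and 0.164 ± 0.0043% in KO clones. These shares are of the counts as deposited, without TMM, and carry no test. On library totals alone the median log2 fold change over all genes was itself -0.37 in the WT and -0.39 in the KO response. With TMM the median of the membrane genes was 0.09 in WT and -0.10 in KO clones. That of the glycosidases and sulfatases was -0.34 and -0.88. Without the 20 most abundant genes of each library, the 48 took 1.54 ± 0.30% in WT medium and 1.55 ± 0.33% in stimulated WT libraries. In KO clones they took 1.21 ± 0.22% and 1.15 ± 0.17%. Proteases then took 0.646 ± 0.100% and 0.701 ± 0.193% in WT and 0.498 ± 0.133% and 0.523 ± 0.076% in KO clones. Those 20 held 1 of the 48 genes in both libraries of WT clone 2 and in stimulated WT clone 3.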
